A study of Mus musculus with 8 samples.

Results

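The MBT-domain paralogues of *L3mbtl2* are *L3mbtl1*, *L3mbtl3*, *L3mbtl4*, *Sfmbt1*, *Sfmbt2*, *Scmh1*, *Scml2* and *Mbtd1*, the mouse genes that encode proteins with MBT repeats apart from *L3mbtl2* itself. They were chosen by gene symbol, through the RefSeq accession of each microarray probe. Of these 8 genes, 7 had a probe matched by accession (13 probes among 39429), and 5 of the 7 were measured well enough to be tested, among 13653 genes tested in all. Expression was read on Agilent mouse arrays, with one label, in VV3 ESCs, a mouse embryonic stem cell line. The line carries a Venus reporter driven by regulatory sequence of *Vasa* (*Ddx4*) and grows on inactivated STO fibroblast feeders in medium with serum and LIF. In 4 samples the cells received siRNA against *L3mbtl2* (L3mbtl2-KD ESCs), and in 4 samples they received AllStars, an siRNA without a mouse target (control ESCs). The methods state that the L3mbtl2-KD cells were sorted for the *Vasa* reporter, and for these arrays they do not state a sort of the control cells, so sorting and siRNA cannot be told apart. The samples are described as biological replicates of this line. The arrays lay on 2 slides, each with 2 samples of both groups, but the groups shared 0 array positions, so position and group cannot be told apart either. Between 59.5 and 66.6% of the spots of an array were well above background.

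MBT repeats fold into an aromatic pocket that binds lysines carrying low methylation states, most of them on histone tails, and the proteins that hold them mostly act in complexes that compact chromatin or repress transcription. L3MBTL2 works in the PRC1 complex built around PCGF6, together with MGA, MAX and E2F6, and this complex keeps germ-cell genes silent in ESCs. Its paralogues sit in other complexes, among them the NuA4/TIP60 acetyltransferase (MBTD1), canonical PRC1 (SCMH1 and SCML2) and assemblies with YY1 or with the demethylase KDM1A (the SFMBT proteins).

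The siRNA target was read first, as a check of the labels. Levels are log2 intensities minus the 75th percentile of the array, so a probe at 0 is as bright as that percentile. The *L3mbtl2* probe (NM_145993) read 0.27, -0.18, -0.21 and -0.31 in control replicates 1 to 4 and -1.45, -1.26, -1.58 and -1.73 in L3mbtl2-KD replicates 1 to 4. All 4 L3mbtl2-KD samples lay below all 4 controls, and none of the labels was contradicted. The change was -1.40 on the log2 scale (standard error 0.15, adjusted p = 0.000945 in limma), which left 37.9% of the control intensity, and it was -1.40 on both slides.

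Of the 5 paralogues tested, *Sfmbt2* and *L3mbtl3* were down-regulated in L3mbtl2-KD ESCs and *Sfmbt1* was up-regulated, while *Scmh1* and *Mbtd1* did not pass the threshold (adjusted p under 0.05 in limma, two-sided, over 23525 probes). That is 2 of 5 genes with a probe that fell, where 11.7% of all genes tested had one, and 1 of 5 with a probe that rose, against 10.3% of all genes. *Sfmbt2* was the only one of the 5 whose change was also larger than 2-fold, a fall that 3.21% of all genes showed. All 8 probes of these 5 genes were well above background on all 8 arrays, so that none was tested because of its level in one group. With 5 genes, no share is read from counts of 1 or 2, and the description rests on the single values. The median log2 fold change of the 5 genes was -0.21, against -0.01 over all genes tested.

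**Figure D1:**
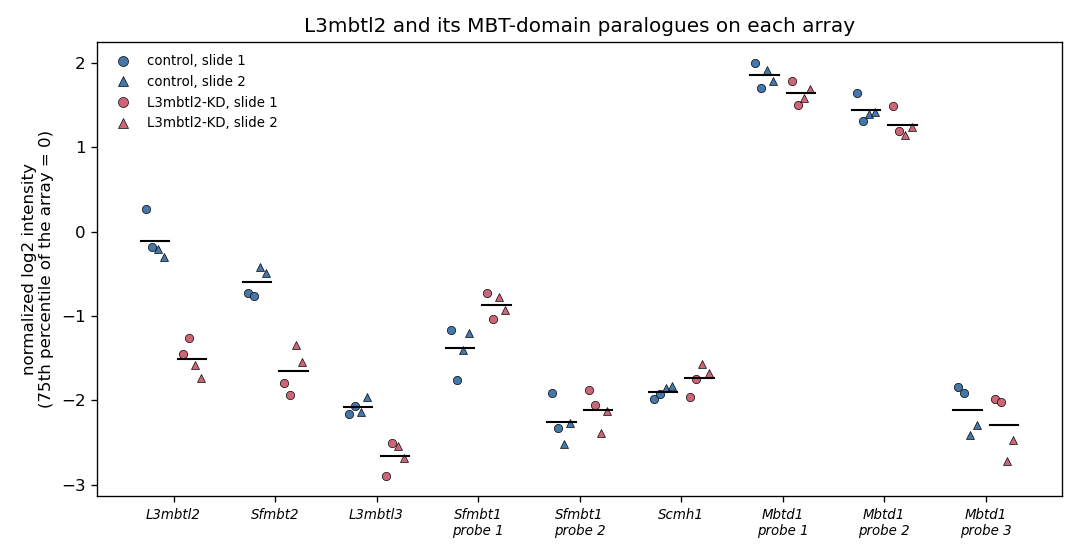
Normalized log2 intensity (75th percentile of the array at 0) of *L3mbtl2* and of each tested paralogue probe in every control and L3mbtl2-KD sample, with circles for slide 1, triangles for slide 2 and bars for group means; heights of different probes are not comparable. The 4 L3mbtl2-KD samples lie below the 4 control samples for *L3mbtl2*, *Sfmbt2* and *L3mbtl3*, and above them for 1 of the 2 *Sfmbt1* probes.

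*Sfmbt2* encodes a repressor with MBT repeats and a SAM domain. It is an imprinted gene, expressed from the paternal allele in early embryos and extraembryonic tissue, and it is needed for trophoblast development. RefSeq (GRCm38.p6) lists a pair of start sites for it, and the 250 bases before each are shown here because this paralogue changed most. The upstream window is chr2:10370201-10370450 and the downstream window is chr2:10372186-10372435, both on the plus strand, and capitals mark a match to an E2F-type motif (GCGGGA, either strand), which begins 136 bases before the downstream start.
Sfmbt2 upstream start: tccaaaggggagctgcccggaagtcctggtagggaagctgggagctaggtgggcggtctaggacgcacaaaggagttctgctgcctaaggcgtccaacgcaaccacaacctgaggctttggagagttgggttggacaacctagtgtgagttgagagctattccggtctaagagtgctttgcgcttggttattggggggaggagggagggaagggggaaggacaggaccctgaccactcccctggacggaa
Sfmbt2 downstream start: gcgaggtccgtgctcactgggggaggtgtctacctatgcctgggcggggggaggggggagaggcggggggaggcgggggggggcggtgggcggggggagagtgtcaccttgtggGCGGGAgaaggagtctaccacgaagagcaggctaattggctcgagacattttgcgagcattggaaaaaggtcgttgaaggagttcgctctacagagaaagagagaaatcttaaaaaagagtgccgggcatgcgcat
Neither window holds the E-box CACGTG, the T-box motif AGGTGTGA or the YY1-type motif GCCATNTT on either strand. Over all 32851 promoter windows of this length, 16.9% hold GCGGGA, 6.02% hold CACGTG, 1.12% hold AGGTGTGA and 3.91% hold GCCATNTT. The array has 1 *Sfmbt2* probe and does not tell transcripts from these starts apart.

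The *Sfmbt2* probe (NM_177386) read -0.72, -0.76, -0.42 and -0.49 in control replicates 1 to 4 and -1.80, -1.93, -1.34 and -1.55 in L3mbtl2-KD replicates 1 to 4. The groups did not overlap, and within both groups the samples of slide 2 were higher than those of slide 1. The mean fell from -0.60 ± 0.17 (SD, n = 4) to -1.65 ± 0.26 (SD, n = 4). The log2 fold change was thus -1.06 (95% CI -1.39 to -0.72, adjusted p = 0.00255 in limma), or 48.1% of the control intensity, and the exact permutation test of this single value gave p = 0.0286 (two-sided), the smallest that 4 against 4 samples allow. The change was -1.12 on slide 1 and -0.99 on slide 2. *Sfmbt2* lay close to the 2-fold line. Its fall was 1.87-fold with normexp background correction, 1.99-fold without control replicate 3 and 1.95-fold without L3mbtl2-KD replicate 2, with an adjusted p between 0.000257 and 0.0129 over the alternatives.

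**Figure D2:**
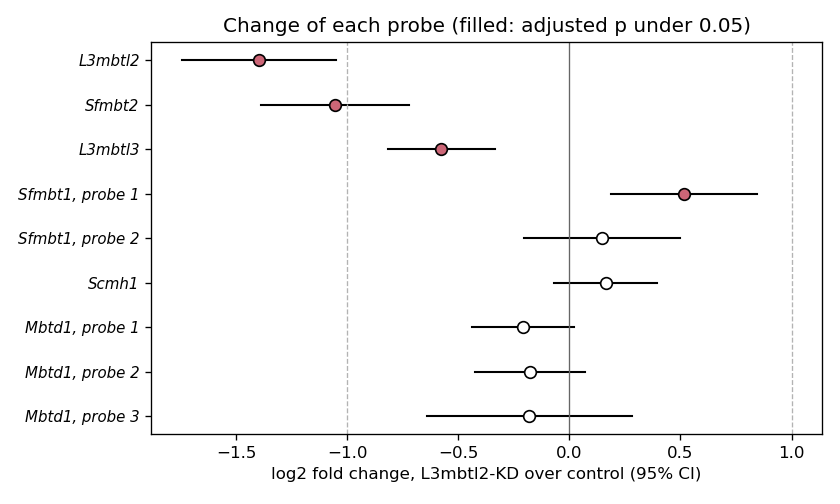
Log2 fold change of L3mbtl2-KD over control for each tested probe of *L3mbtl2* and its paralogues, with the 95% CI from limma as bars, filled circles for an adjusted p under 0.05 and dashed lines at 2-fold. *L3mbtl2* (-1.40) and *Sfmbt2* (-1.06) lie past the lower 2-fold line, and the intervals of the dimmer *Sfmbt1* probe, of *Scmh1* and of the 3 *Mbtd1* probes cross 0.

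Most tested markers of primitive endoderm and of feeder fibroblasts, cells that an ESC culture can hold, were lower in L3mbtl2-KD ESCs as *Sfmbt2* was. Of all genes tested, 11.7% fell. Of 10 primitive endoderm markers, the lineage next to the epiblast in the blastocyst, all 10 were tested and 8 fell. Some of them were tested only because of their level in control ESCs, and among the 7 with a probe well above background on all arrays 5 fell. The summed intensity of all 10, in units of the 75th percentile of the array, was 17.4, 14.0, 14.2 and 18.8 in control replicates 1 to 4 and 4.63, 5.85, 4.33 and 3.34 in L3mbtl2-KD replicates 1 to 4. The sum includes *Foxa2*, *Dab2* and *Sox17*, which were tested only because of their level in control ESCs, and it was not taken without them. The basement membrane gene *Lama1*, well above background on all 8 arrays, gave 73.1% of this sum. Without *Lama1* the sum was 4.03, 3.51, 2.99 and 4.71 in control replicates 1 to 4. In L3mbtl2-KD replicates 1 to 4 it was then 1.43, 2.26, 1.75 and 1.56. The sum without *Lama1* still includes *Foxa2*, *Dab2* and *Sox17*. *Lama1* fell by 2.18 on the log2 scale (standard error 0.22, adjusted p = 0.00063 in limma). The endocytic adaptor gene *Dab2* was well above background in all 4 control samples and in 1 L3mbtl2-KD sample. The brighter probe of the endocytic receptor *Cubn* fell by 3.20 (standard error 0.30, adjusted p = 0.000542). In L3mbtl2-KD ESCs no sample had *Foxa2* or the other *Cubn* probe well above background. With normexp background correction *Foxa2* changed by -0.41 and lost its call (adjusted p = 0.0763 in limma). *Gata6* (0.06, adjusted p = 0.883) and *Sox7* (-0.56, adjusted p = 0.11) did not pass the threshold.

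Of 14 feeder fibroblast markers, 10 were tested and 7 fell, against 11.7% of all genes tested. Among the 8 with a probe well above background on all arrays 5 fell. The summed intensity of the 10 tested was 5.62, 12.9, 11.5 and 14.4 in control replicates 1 to 4, with control replicate 1 lowest, and 4.91, 4.86, 5.47 and 5.41 in L3mbtl2-KD replicates 1 to 4. The actin-binding protein gene *Tagln*, which other contractile cells also express, gave 66.3% of that sum and did not pass the threshold (adjusted p = 0.173). Neither did *Fbn1* (0.16, adjusted p = 0.743 in limma) and *Twist1* (-0.42, adjusted p = 0.2). Without *Tagln* the sum was 2.31, 5.16, 4.30 and 6.20 in control replicates 1 to 4 and 0.924, 1.11, 0.995 and 0.884 in L3mbtl2-KD replicates 1 to 4. The groups did not overlap in this sum, but it includes *Dcn* and *Col3a1*, as does the sum with *Tagln*. Both genes were tested only because of their level in control ESCs, and neither sum was taken without them. The lack of overlap is thus partly built in by the choice of probes. *Acta2* fell by 2.72 (standard error 0.39, adjusted p = 0.00302 in limma) and *Pdgfrb* by 1.57 (standard error 0.19, adjusted p = 0.00132), or by 0.84 with normexp background correction. The matrix genes *Dcn* and *Col3a1* were well above background in all 4 control samples and in 0 of 4 L3mbtl2-KD samples, so that they were tested only because of their level in control ESCs. *Col5a2*, *Lum*, *Postn* and *Prrx1* were not well above background on any array of either group. In such bulk samples, fewer cells of a type and less RNA per cell cannot be told apart. The methods state the sort for the reporter for the L3mbtl2-KD cells only. The part of these cells in the fall of *Sfmbt2* was not tested.

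Of 10 trophectoderm markers, the lineage in which *Sfmbt2* is best known, 8 were tested and 0 passed the threshold in limma in either direction. At an unadjusted p under 0.05 in limma, 0 rose and 1 fell, where 18.2% of all genes tested rose and 20.5% fell at that threshold, and the methods' one-way test called 0 with or without adjustment. All 8 were lower in L3mbtl2-KD ESCs (7046 of 13653 over all genes), with log2 fold changes from -0.81 to -0.02 and a median of -0.31. Of these, *Cdx2* and *Gata3* were tested only because of their level in control ESCs, and 6 had a probe well above background on all arrays. With normexp background correction not all 8 were lower (*Hand1* 0.04), and *Gata3* (-0.05) and *Cdx2* (-0.25) changed less. The summed intensity of the 8 was 10.5, 17.4, 14.5 and 11.6 in control replicates 1 to 4 and 8.99, 15.3, 13.9 and 10.5 in L3mbtl2-KD replicates 1 to 4, so that the groups overlapped, although it was lower in L3mbtl2-KD ESCs for all 4 replicate numbers. *Tfap2c* gave 56.1% of it, *Elf5* was not well above background on any array, and *Plac1* was so on 1 control array only. With the replicate number as a block 2 of the 8 fell, where 26.0% of all genes fell in that fit. Without L3mbtl2-KD replicate 1, the lowest sample, 1 of the 8 fell, where 1266 of all 13653 genes did.

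The ESC list holds markers of the cell type of this line. Of 10 ESC markers 1 fell, against 11.7% of all genes tested. This was the pluripotency factor *Klf4* (-0.70, standard error 0.18, adjusted p = 0.0274 in limma). Lower values were seen for 7 of the 10 (7046 of 13653 over all genes), with a median log2 fold change of -0.20. The largest change, that of *Nanog* (-1.32, standard error 0.49), did not pass the threshold (adjusted p = 0.0962 in limma). At an unadjusted p under 0.05 in limma 0 rose and 3 fell (18.2% and 20.5% of all genes). *Klf4* missed the threshold without control replicate 3, L3mbtl2-KD replicate 3 or L3mbtl2-KD replicate 4 (adjusted p between 0.068 and 0.0709), and its adjusted p was 0.00579 to 0.0709 over the alternatives. The call was also lost without a filter on dim probes (adjusted p = 0.0673) and in the methods' one-way test with adjustment (adjusted p = 0.0641). The summed ESC marker intensity was 302 to 324 in control ESCs and 296 to 333 in L3mbtl2-KD ESCs, with *Dppa5a* giving 49.1% of it. Without *Dppa5a* the sum was 153 to 177 in control ESCs and 148 to 154 in L3mbtl2-KD ESCs, with 3 of 4 L3mbtl2-KD samples below all controls. With the replicate number as a block 3 ESC markers fell and 1 rose, where 26.0% of all genes fell and 23.9% rose in that fit. With the slide as a block or with an intensity trend, 2 fell. Among all 13653 genes tested, 2103 fell with the slide as a block and 1674 with an intensity trend.

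Among 10 germ-cell markers, 9 were tested and 8 of them were up-regulated, each by more than 2-fold. The tested marker that did not rise was *Sycp3* (-0.11, adjusted p = 0.629 in limma). Of all 13653 genes tested, 10.3% rose and 340 genes rose by more than 2-fold. The median log2 fold change over the 9 germ-cell markers was 1.79, while the germ-cell gene *Tdrd1* was not well above background on any array. Their summed intensity was 61.8, 46.4, 38.7 and 45.8 in control replicates 1 to 4 and 167, 141, 127 and 164 in L3mbtl2-KD replicates 1 to 4, with *Stra8* giving 56.9% of it. All 4 L3mbtl2-KD sums were above all 4 control sums. *Ddx4*, the gene whose regulatory sequence drives the reporter used for sorting, rose by 2.83 on the log2 scale (adjusted p = 4.88e-06 in limma). Among 10 markers of 2-cell-like cells, 9 were tested and 8 had a probe that rose, against 10.3% of all genes tested. Their sum was 124, 136, 88.1 and 91.0 in control replicates 1 to 4 and 191, 185, 122 and 130 in L3mbtl2-KD replicates 1 to 4, with *Sp110* giving 64.7% of it. The sums of the groups overlapped, although the sum was higher in L3mbtl2-KD ESCs for all 4 replicate numbers. The *Sp110* probe in the sum changed by -0.02 (adjusted p = 0.942), and the rise of this gene was called on its 2 dimmer probes. Without *Sp110* the sum was 16.9 to 30.1 in control ESCs and 50.7 to 93.3 in L3mbtl2-KD ESCs, with no overlap. The part of such cells in the changes of the paralogues was not tested.

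*L3mbtl3* encodes a paralogue with MBT repeats and a SAM domain that binds RBPJ and KDM1A and has been linked to blood cell maturation. RefSeq (GRCm38.p6) lists a pair of starts on the minus strand, with 250-base windows at chr10:26375220-26375469 (upstream) and chr10:26374073-26374322 (downstream). They are shown because *L3mbtl3* fell along with *Sfmbt2*, and capitals mark the match to GCGGGA, which begins 223 bases before the upstream start.
L3mbtl3 upstream start: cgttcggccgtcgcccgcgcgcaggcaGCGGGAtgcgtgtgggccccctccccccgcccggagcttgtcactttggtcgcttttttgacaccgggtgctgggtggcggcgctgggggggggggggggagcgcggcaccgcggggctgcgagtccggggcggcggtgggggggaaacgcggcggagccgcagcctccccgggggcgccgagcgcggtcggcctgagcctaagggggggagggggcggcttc
L3mbtl3 downstream start: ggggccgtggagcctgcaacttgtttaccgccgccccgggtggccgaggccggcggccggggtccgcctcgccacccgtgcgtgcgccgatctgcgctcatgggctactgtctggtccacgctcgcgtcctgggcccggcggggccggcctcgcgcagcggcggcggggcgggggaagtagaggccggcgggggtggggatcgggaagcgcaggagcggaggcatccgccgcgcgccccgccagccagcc
Both windows are 78.8% G or C, where the median of all promoter windows is 52.4%, and neither holds CACGTG, AGGTGTGA or GCCATNTT. The *Sfmbt2* windows are 58.4% and 60.8% G or C.

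The *L3mbtl3* probe (NM_172787) read -2.16, -2.06, -2.14 and -1.96 in control replicates 1 to 4 and -2.89, -2.51, -2.54 and -2.68 in L3mbtl2-KD replicates 1 to 4. The lowest control lay above the highest L3mbtl2-KD sample. The log2 fold change was -0.58 (standard error 0.11, 95% CI -0.82 to -0.34, adjusted p = 0.00815 in limma), which is 67.1% of the control intensity, with an exact permutation p of 0.0286 (two-sided). It was -0.59 on slide 1 and -0.56 on slide 2. With normexp background correction the change was -0.35 and past the threshold (adjusted p = 0.0203, with 0.006 to 0.0253 over the alternatives).

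*Sfmbt1* is the closest relative of *Sfmbt2* in this family, and its product acts as a repressor with KDM1A and RCOR1. Its single RefSeq start lies on the plus strand, and the window before it is chr14:30714917-30715166 (GRCm38.p6). It is shown because *Sfmbt1* had the opposite direction, and capitals mark the E-box CACGTG, a motif that MAX dimers bind, which begins 14 bases before the start.
Sfmbt1 start: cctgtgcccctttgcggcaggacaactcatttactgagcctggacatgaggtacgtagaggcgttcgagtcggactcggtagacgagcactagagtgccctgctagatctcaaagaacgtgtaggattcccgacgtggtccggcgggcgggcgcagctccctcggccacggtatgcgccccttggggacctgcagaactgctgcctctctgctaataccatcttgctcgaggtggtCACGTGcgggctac
This window holds none of the other motifs searched. A match is a description of the letters only. Among the other genes of the family, *Mbtd1* holds CACGTG at 2 places in 1 of its windows, *L3mbtl4* holds it at 1 place, and *Scmh1* holds GCGGGA at 2 places on the opposite strand in 1 of its windows. The windows of *L3mbtl1*, *L3mbtl2* and *Scml2* hold none of the 4 motifs.

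The brighter *Sfmbt1* probe (NM_019460) read -1.17, -1.76, -1.40 and -1.20 in control replicates 1 to 4 and -0.73, -1.04, -0.77 and -0.93 in L3mbtl2-KD replicates 1 to 4. Every L3mbtl2-KD sample was above every control, and control replicate 2 was the lowest of all. The log2 fold change was 0.52 (standard error 0.14, 95% CI 0.19 to 0.84, adjusted p = 0.0399 in limma, exact permutation p = 0.0286, two-sided), with 0.58 on slide 1 and 0.45 on slide 2. The dimmer probe (NM_001166532) read -1.91, -2.33, -2.52 and -2.27 in control replicates 1 to 4 and -1.88, -2.05, -2.39 and -2.12 in L3mbtl2-KD replicates 1 to 4. These groups overlapped. Its change of 0.15 (standard error 0.15, 95% CI -0.20 to 0.50) did not pass the threshold (adjusted p = 0.549 in limma), so the probes of this gene disagree on the call. The call of the brighter probe was lost without control replicate 2, 3 or 4 (adjusted p = 0.061, 0.0943 and 0.0508) and without L3mbtl2-KD replicate 1, 3 or 4 (adjusted p = 0.09, 0.0992 and 0.0747). It was also lost without a filter on dim probes (adjusted p = 0.0928) and in the methods' one-way test with adjustment (adjusted p = 0.0751), with a range of 0.0104 to 0.0992 over the alternatives that use this probe, while the change lay between 0.39 and 0.59 when any single sample was left out.

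Since *Sfmbt1* and *Sfmbt2* had opposite directions, *Sfmbt1* was set against *Sfmbt2* within each array, a measure that no scaling between arrays by a constant can move. This comparison was chosen after the values had been seen, and the difference has no meaning as a level. For the brighter *Sfmbt1* probe it was -0.45, -1.00, -0.98 and -0.71 in control replicates 1 to 4 and 1.07, 0.89, 0.57 and 0.61 in L3mbtl2-KD replicates 1 to 4. The groups were separate, with a gap of the same sign on both slides (1.71 on slide 1 and 1.44 on slide 2). The shift was 1.57 on the log2 scale. For the dimmer probe, whose own change did not pass, it was 1.20, of which the fall of *Sfmbt2* itself makes up 1.06. Since the pair was chosen for its opposite directions, these values are a description and carry no test.

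**Figure D3:**
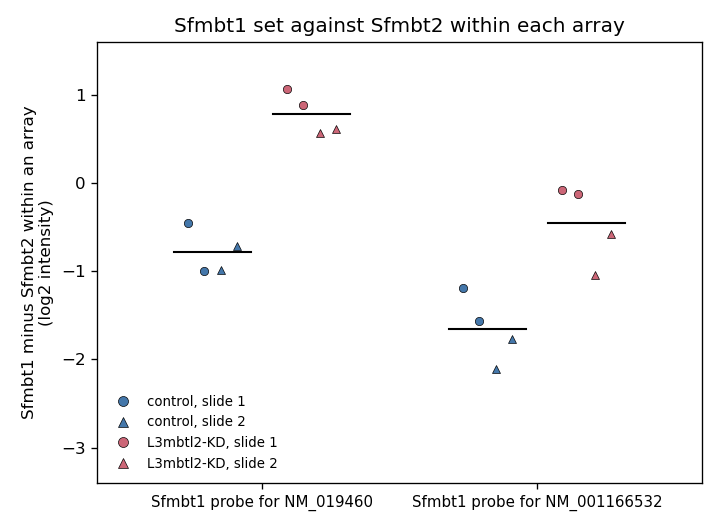
Log2 intensity of *Sfmbt1* minus that of *Sfmbt2* within each array, for both *Sfmbt1* probes, in control and L3mbtl2-KD samples (circles slide 1, triangles slide 2, bars group means). The L3mbtl2-KD samples lie above the control samples for both probes, by 1.57 and 1.20 on average; only the shift between groups can be read, not the height.

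*Mbtd1*, whose product is a subunit of the NuA4/TIP60 acetyltransferase, had 3 probes (NM_134012). The probe with the highest signal read 2.00, 1.70, 1.92 and 1.78 in control replicates 1 to 4 and 1.79, 1.50, 1.59 and 1.69 in L3mbtl2-KD replicates 1 to 4. The groups overlapped, although each L3mbtl2-KD sample was lower than the control with its own replicate number. The log2 fold change of this probe was -0.21 (95% CI -0.44 to 0.02, adjusted p = 0.183 in limma), and the other probes gave -0.18 (adjusted p = 0.297) and -0.18 (adjusted p = 0.581). With the replicate number as a block, all 3 *Mbtd1* probes passed the threshold (adjusted p = 0.035 for the brightest, 0.0307 and 0.0448 for the others in limma), which makes 3 of 5 paralogues that fell, where 26.0% of all genes fell in that fit. Over the alternatives tried, the adjusted p of the brightest probe ranged from 0.035 to 0.341.

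*Scmh1* encodes a PRC1-associated protein of the Sex comb on midleg type. Its probe (NM_013883) read -1.98, -1.92, -1.85 and -1.83 in control replicates 1 to 4 and -1.96, -1.74, -1.56 and -1.68 in L3mbtl2-KD replicates 1 to 4. L3mbtl2-KD replicate 1 lay among the controls and the others above them. The log2 fold change was 0.16 (95% CI -0.07 to 0.39, adjusted p = 0.299 in limma).

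The other 3 paralogues gave no fold change. Both probes of *L3mbtl1*, the founding vertebrate member of the family, were not well above background on any array (intensities of 2.96 to 7.21, where the 75th percentile of an array was 791 to 1038). *L3mbtl4* had 3 probes, of which 2 were not well above background on any array and 1 was so only in L3mbtl2-KD replicate 1. That probe read -3.74 in L3mbtl2-KD replicate 1 and between -8.13 and -7.47 in the other 7 samples. *Scml2* had no probe matched by accession. A probe that carries an accession absent from the RefSeq table stays unnamed, so this does not show that the array lacks a *Scml2* probe, and its expression was not analysed here.

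The partners of these proteins were described next, with lists written for the complexes and relatives of the family. Over 64 distinct partner genes tested, 4 rose and 5 fell, with a median log2 fold change of -0.05, against -0.01 over all genes, where 10.3% rose and 11.7% fell. With the replicate number as a block, 25 of them passed the threshold, while 23.9% of all genes rose and 26.0% fell in that fit. Block counts for single lists are to be read against these shares.

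Of 15 genes of the PCGF6-PRC1 complex of L3MBTL2, 3 rose and 1 fell, none by more than 2-fold (median 0.02). Over all genes tested, 10.3% rose and 11.7% fell. *E2f6*, the E2F-family repressor of this complex, read 1.41, 1.28, 1.32 and 1.56 in control replicates 1 to 4 and 1.95, 1.74, 1.95 and 2.15 in L3mbtl2-KD replicates 1 to 4, without overlap. It rose by 0.56 on the log2 scale (adjusted p = 0.011 in limma, standard error 0.11). The deacetylase gene *Hdac2* rose by 0.36 (standard error 0.07, adjusted p = 0.0131), and *Yaf2*, a RING1-binding subunit, by 0.41 (standard error 0.09, adjusted p = 0.0183) on 1 of its 2 probes (0.22 and adjusted p = 0.103 on the other). *Ehmt2*, which encodes an H3K9 methyltransferase, fell by 0.35 (standard error 0.07, adjusted p = 0.0149). The genes that define the complex gave 0.07 for *Pcgf6* (adjusted p = 0.582), 0.11 for *Mga* (adjusted p = 0.464) and 0.02 for *Max* (adjusted p = 0.887). *Yaf2* missed the threshold without a filter on dim probes (adjusted p = 0.0512) and without control replicate 3 (adjusted p = 0.0553) or L3mbtl2-KD replicate 4 (adjusted p = 0.0504), with a range of 0.00502 to 0.0553 over the alternatives, and with the replicate number as a block 5 genes of this list rose and 2 fell.

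Of 17 genes of NuA4/TIP60, the complex that holds MBTD1, 0 rose and 2 fell in limma (median -0.12), where 10.3% and 11.7% of all genes did. The catalytic subunit gene *Kat5* read 0.26, 0.11, 0.28 and 0.21 in control replicates 1 to 4 and -0.37, -0.44, -0.44 and -0.35 in L3mbtl2-KD replicates 1 to 4. The groups were far apart against their spread (SD 0.07 and 0.05, n = 4 each). The log2 fold change of *Kat5* was -0.61 (standard error 0.08, adjusted p = 0.0016 in limma). The bromodomain subunit *Brd8* fell by 0.66 (standard error 0.16, adjusted p = 0.0235), and *Epc1*, whose product binds MBTD1 directly, gave -0.17 and 0.13 on its 2 probes (adjusted p = 0.59 and 0.805). *Brd8* missed the threshold without control replicate 2, control replicate 3 or L3mbtl2-KD replicate 3 (adjusted p = 0.0601, 0.0655 and 0.0612), with a range of 0.00733 to 0.0655 over the alternatives, so that 1 gene of this list fell in those fits. It was lost as well without a filter on dim probes (adjusted p = 0.0593) and in the methods' one-way test with adjustment (adjusted p = 0.055). At an unadjusted p under 0.05 in limma 0 genes of this list rose and 5 fell (18.2% and 20.5% of all genes), the methods' one-way test with adjustment called 1 that fell, and with the replicate number as a block 7 fell.

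Canonical PRC1, the complex that SCMH1 and SCML2 join through PHC proteins, had 0 of 12 genes past the threshold in limma (median -0.18). At an unadjusted p under 0.05, 1 of them rose and 2 fell (18.2% and 20.5% of all genes), and the methods' one-way test with adjustment called 0. The PHC genes gave 0.20 for *Phc1* (adjusted p = 0.192), -0.10 for *Phc2* (adjusted p = 0.434) and -0.33 for *Phc3* (adjusted p = 0.111). With a block by slide, or by replicate number, 1 gene rose and 1 fell, with normexp, quantile normalization or an intensity trend 1 fell, and without control replicate 2, 1 rose. Among 8 genes with a SAM domain but no MBT repeats, 5 were tested and 1 rose, against 10.3% of all genes. This was *Scml4*, a relative of *Scml2*. Its probe read -2.42, -2.25 and -2.52 in control replicates 1, 3 and 4, with an outlier spot in replicate 2, and -1.54, -2.07, -1.64 and -1.51 in L3mbtl2-KD replicates 1 to 4. All L3mbtl2-KD values were above the 3 controls, and the rise was 0.71 on the log2 scale (adjusted p = 0.0207 in limma on 7 arrays, standard error 0.16). In the authors' log2 table, which gives a value for the missing sample too, the change of *Scml4* was 0.42 (adjusted p = 0.32), and the call was also lost without L3mbtl2-KD replicate 3, control replicate 4 or L3mbtl2-KD replicate 4 (adjusted p = 0.055, 0.0674 and 0.0537). So it was without a filter on dim probes (adjusted p = 0.0559) and in the methods' one-way test with adjustment (adjusted p = 0.0539). With the replicate number as a block or without L3mbtl2-KD replicate 1, 2 genes of this list rose, and over the alternatives the adjusted p of *Scml4* was 0.00627 to 0.32.

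Other known partners of the family, such as *Yy1*, *Kdm1a*, *Rcor1* and *Rbpj*, had 0 of 9 genes past the threshold in limma. Of these 9, 8 were higher in L3mbtl2-KD ESCs (6607 of 13653 over all genes), with a median of 0.12. At an unadjusted p under 0.05, 2 rose and 0 fell (18.2% and 20.5% of all genes), the methods' one-way test with adjustment called 0, with the replicate number as a block 4 rose (23.9% of all genes), and without L3mbtl2-KD replicate 1, 1 rose. *Yy1*, whose product binds SFMBT2, changed by 0.13 (adjusted p = 0.303 in limma), and *Kdm1a* by 0.05 (adjusted p = 0.732). Of 7 genes for enzymes that set or remove the low methylation states bound by MBT repeats, 2 fell, against 11.7% of all genes. These were *Ehmt2* and the H4K20 methyltransferase gene *Kmt5b*. With the replicate number as a block 3 rose and 3 fell (23.9% and 26.0% of all genes). The brightest of 3 *Kmt5b* probes changed by -0.85 (standard error 0.18, adjusted p = 0.0159), and the others by -0.26 (adjusted p = 0.619) and 0.47 (adjusted p = 0.297). Of 9 genes for Tudor-type readers, a related fold, 1 fell, against 11.7% of all genes. This was *Phf19*, a PRC2-associated factor, with -1.86, -1.97, -1.78 and -2.00 in control replicates 1 to 4 and -2.73, -2.72, -2.37 and -2.64 in L3mbtl2-KD replicates 1 to 4. Its groups did not overlap, and the change was -0.71 on the log2 scale (adjusted p = 0.00334 in limma, standard error 0.11), or -0.42 with normexp background correction.

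**Figure D4:**
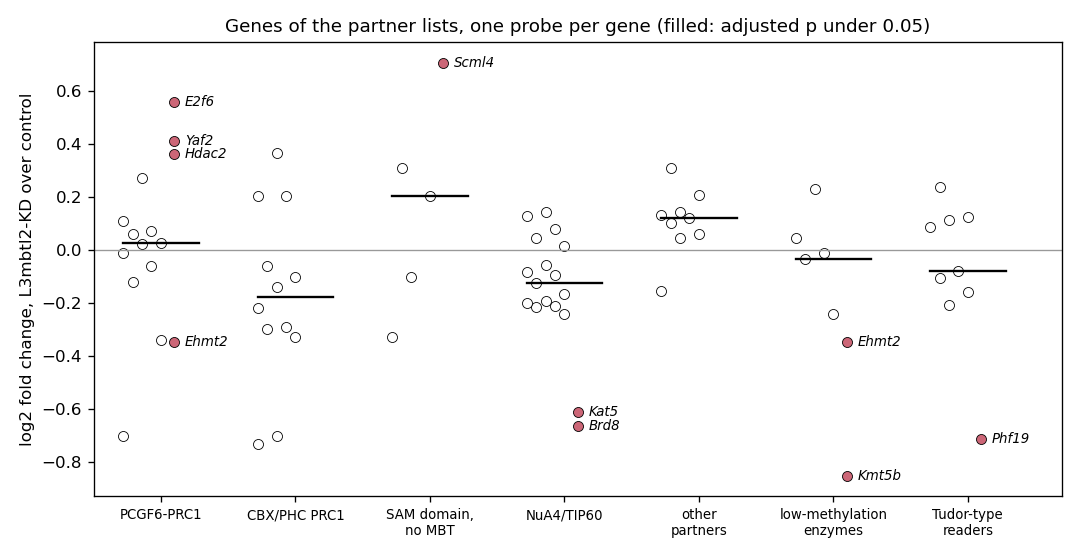
Log2 fold change of L3mbtl2-KD over control for each gene of the partner lists, with 1 probe per gene, filled circles with names for an adjusted p under 0.05 in limma, and bars for the median of a list. Most genes lie within 0.40 of 0 on the log2 scale, and the named genes are 4 that rose and 5 that fell, with *Ehmt2* in 2 lists.

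The genes whose values over the 8 arrays were most like those of *Sfmbt2*, among 13168 genes compared, were *Niban2* (Pearson r = 0.993), *Pabpc1l* (0.992) and *Tnfrsf1a* (0.991). The correlation mostly follows the gap between the groups and is given as a description. *Pabpc1l*, for a poly(A)-binding protein of the germ line, read -2.12, -2.20, -1.89 and -1.87 in control replicates 1 to 4 and -2.96, -3.07, -2.64 and -2.64 in L3mbtl2-KD replicates 1 to 4. As for *Sfmbt2*, the samples of slide 2 were the higher ones within both groups, a likeness that comes with choosing the gene by this correlation. *Pabpc1l* fell by 0.81 on the log2 scale (adjusted p = 0.0054 in limma, standard error 0.13). The change of *Niban2* was -0.55 (standard error 0.08, adjusted p = 0.00372), and that of the TNF receptor gene *Tnfrsf1a* was -0.55 (standard error 0.09, adjusted p = 0.0064).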

How the data were processed

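RNA of 4 L3mbtl2-KD and 4 control samples was hybridised to one array each. The authors deposited, for every spot, an intensity from which Feature Extraction (10.7.3.1) had subtracted background and which was not normalized between arrays. A table of log2 values was deposited by the authors as well, shifted to the 75th percentile in GeneSpring according to the methods. Its values followed the log2 intensities after centring each probe on its median (lowest correlation of an array 0.9999, column medians -0.06 to 0.08). The files name build mm9; names came from RefSeq tables of GRCm38.p6 (26055 of 39429 probes, 19751 genes), and all 9 genes of the family had a promoter there.

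The intensities were put on the log2 scale and shifted so that the 75th percentile of each array was 0. Control spots and outlier spots were left out, and the rest were averaged by probe; 0 probes were saturated. A probe was tested if all 4 arrays of a group had it well above background (23525 probes, of which 85 lacked a value on some array) with limma (3.58.1, R 4.3.3) and Benjamini-Hochberg adjustment over all of them. A gene was counted by any of its probes past the threshold, and the probe with the highest mean signal stood for it. The number of arrays limits the precision. The members and lists were chosen with earlier results of these data known. Of each list, up to 4 genes per direction with the lowest adjusted p were named, beside genes that define a complex, and the 3 genes most like a member called at more than 2-fold.

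Deviations from the group means correlated at 0.38 to 0.58 between samples with the same replicate number and at -0.44 to 0.25 between the others, so a block by replicate number was tried; that the numbers pair samples is read from these values, not from the labels. Alternatives were normexp background correction (offset 50, on median spot intensities), quantile normalization, the authors' table, other filters, a block by slide or by replicate number, a trend with intensity, the methods' one-way test and leaving out each sample.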

Additional observations from a re-analysis of the deposited data

Results flagged for a closer look

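In L3mbtl2-KD replicate 1, the *L3mbtl4* probe that was well above background on 1 array read -3.74, while the mean of the other 3 L3mbtl2-KD samples was -7.64, and the distance from it to the nearest of them (-7.47) was 0.914 of the range of the group. The other 2 *L3mbtl4* probes were not well above background in that sample. It was the only one of 28 groups of 4 samples (each probe of *L3mbtl2* and its paralogues in each siRNA group) with a sample so far from the others, and chance gives about 1.4 in 28. The cause was not tested.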

How the results depend on the processing

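The fall of *L3mbtl2*, *Sfmbt2* and *L3mbtl3* kept its direction and its side of the threshold under all 18 alternatives, and no result reversed. Leaving out each sample gave -1.48 to -1.27 for *L3mbtl2*, -1.16 to -0.96 for *Sfmbt2*, -0.63 to -0.50 for *L3mbtl3*, 0.39 to 0.59 for *Sfmbt1*, 0.11 to 0.24 for *Scmh1* and -0.26 to -0.16 for *Mbtd1*. *Sfmbt1* (0.52) lost its call without a filter on dim probes (adjusted p = 0.0928) and in the methods' one-way test with adjustment (adjusted p = 0.0751), which leaves 0 paralogues that rose, and its next brightest probe gave 0.15. Without one sample, 0 to 1 paralogues rose. The paralogues that fell more than 2-fold numbered 0 with normexp and 0 to 1 without one sample. With the replicate block, *Mbtd1* (-0.21) gained a call, and no other paralogue changed its call. Partner genes past the threshold went from 9 to 25 with the replicate block to 21 in the unadjusted one-way test, to 6 without a filter on dim probes, and to between 7 and 10 without one sample.

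Over the whole array, 1406 genes rose and 1603 fell. These counts were 819 and 1047 without a filter, 3259 and 3546 with the replicate block, 2477 and 2655 in the unadjusted one-way test, and, without one sample, 785 to 1398 and 997 to 1579. The lowest counts were those without control replicate 3 (785 and 997), and 914 and 852 genes rose without L3mbtl2-KD replicate 3 or 4. Without control replicate 1, at the same number of samples, 1398 genes rose and 1579 fell. The causes of these moves were not tested.

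The shift of *Sfmbt1* against *Sfmbt2* was 1.37 to 1.68 under 11 alternatives chosen after seeing the data. The alternatives were applied to the lists and named genes after seeing the data as well. Of 468 list counts, 46 moved by more than 1.5 times, and of 517 values of 29 named genes, 20 lost the call. The median change of all genes lay within 0.02 of 0 under each scaling. Matching probes by their own gene name column was planned and was not run. Probes near background limit what can be said of *L3mbtl1* and *L3mbtl4*.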
